A study of Hermetia illucens with 24 samples.

Results

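These 150 genes of the black soldier fly *Hermetia illucens* held a steady mean level in larvae on control feed and a lower mean level in larvae on feed with aflatoxin B1 (AFB1) after 6, 24 and 72 h. They were taken from 15129 genes named by an NCBI LOC number, 13465 of which had at least 1 count. Levels are CPM, the count of a gene per 1e+06 counts of its library, computed without the most abundant gene, LOC119646963, and averaged within each group as log2(CPM + 1). A gene qualified if its 3 control means lay within less than 1 of each other on that scale and each control mean lay at least 0.7 above the AFB1 mean of the same time. Single libraries were not bound by this. The median SD of the 150 genes over the libraries of a group was 0.57, 0.96 and 0.12 in controls at 6, 24 and 72 h. On AFB1 it was 1.09, 0.55 and 0.70. Of 10765 genes with counts that were steady in controls, 174 met the second condition, and the 150 with the largest value of their smallest difference were kept. For comparison, 64 genes were steady in controls and at least 0.7 higher on AFB1 at all 3 times. The lower level on AFB1 is therefore what defines these genes, and each difference between the diets at a single time is given below as a description. Tests are used for changes between AFB1 groups and for how the diet difference varied with time.

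Larvae were 5 days old when they were moved to chicken feed, either untreated or spiked with AFB1. The 6 groups were control and AFB1 larvae after 6, 24 and 72 h, with 4 libraries of 2 pooled whole larvae in each. The protocols speak of 5 pools per diet and time, and whether pools came from separate rearing containers is not stated, so p-values rest on the spread between pools. The AFB1 dose is not given in the labels used here.

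AFB1 is a toxin made by *Aspergillus* moulds. In animals, cytochrome P450 enzymes turn it into a reactive epoxide that binds DNA, and conjugating enzymes such as glutathione S-transferases remove the epoxide. Black soldier fly larvae are reared on organic waste as a source of feed protein, and such waste can carry the toxin. All 150 genes were found in the reference annotation, all as protein-coding genes. The form of that annotation used here pairs the LOC numbers with no product names, so no role is given for a single gene. The genes are described by level, size of the difference, time course and position.

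Library totals ran from 6826454 to 27136702 counts. LOC119646963 took 7.12% to 81.1% of a library, which left between 1711314 and 24355059 counts for all other genes. The lowest remainders were those of AFB1 24 h replicates 3 and 4, in which 3 counts amounted to 1.43 and 1.75 CPM. Over all genes, 7 libraries correlated better with the mean of another group than with that of their own: replicate 2 of control 6 h, replicates 1 and 4 of control 24 h, replicates 2 and 3 of AFB1 6 h, replicate 1 of AFB1 24 h and replicate 2 of AFB1 72 h. Within control 72 h, replicates 1 and 4 differed over the 150 genes by 2.05 times the variance that counting alone gives and replicates 2 and 3 by 3.15 times. The other 4 pairs of that group differed by 38.4 to 39.5 times, and pairs of libraries within the other groups by 14.4 to 1520 times. These ratios are means over the genes and grow with the number of counts, so groups of unlike depth are not directly comparable. In the other 4 pairs of control 72 h, most of the mean came from 1 gene, LOC119650814, whose levels are given below. The medians over the genes were much lower. In control 72 h the medians were 0.783 for replicates 1 and 4, 1.45 for replicates 2 and 3 and 1.91 to 2.88 for the other 4 pairs. Within the other groups the medians ran from 1.49 to 166. The labels do not say whether control 72 h libraries, those of a close pair or all 4, are repeats of the same RNA. In that case the spread of that group, the smallest of the 6, would be partly or wholly technical. With each close pair summed to 1 library, the genes called lower on AFB1 at 72 h in edgeR went from 70 to 36 of the 150 and those with an effect that differed between times from 5 to 2.

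The control level of the 150 genes ran over more than 3 orders of magnitude. The mean over the 12 control libraries was under 10 CPM in 18 genes, from 10 to under 100 CPM in 93, from 100 to under 1000 CPM in 34 and at least 1000 CPM in 5. The median was 38.3 CPM, with a range from 1.58 to 7974 CPM, against a median of 11.3 CPM and a range from 0.0114 to 2697 CPM over the 12 AFB1 libraries. As a share of all counts outside LOC119646963, the genes summed to 2.59% ± 0.505 (SD, n = 4) after 6 h on control feed, 2.96% ± 1.30 after 24 h and 2.47% ± 0.127 after 72 h. On AFB1 feed the sums were 1.50% ± 1.15 after 6 h, 0.451% ± 0.0670 after 24 h and 0.788% ± 0.401 after 72 h. In RNA from whole larvae, fewer cells of a type and less RNA per cell cannot be told apart.

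The median difference between the control and AFB1 means, on the log2(CPM + 1) scale, was 1.46 at 6 h, 2.03 at 24 h and 1.52 at 72 h, which correspond to 2.75-fold, 4.08-fold and 2.87-fold. Over all 13465 genes with counts the medians were 0.10, 0.14 and -0.03. The largest differences were 6.19 at 6 h, 7.03 at 24 h and 7.09 at 72 h. A difference of at least 2 was found in 27 genes at 6 h, in 77 at 24 h and in 57 at 72 h, and 21 genes reached it at all 3 times. The largest of a gene's 3 differences fell at 24 h in 85 genes, at 72 h in 42 and at 6 h in 23. By control level, the median differences at 6, 24 and 72 h were 1.39, 1.52 and 1.44 in the 18 genes under 10 CPM. They were 1.46, 1.92 and 1.37 in the 93 genes from 10 to under 100 CPM, and 1.55, 2.42 and 2.09 in the 39 genes of at least 100 CPM. The log2(CPM + 1) scale understates the change of genes with low counts.

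**Figure D1:**
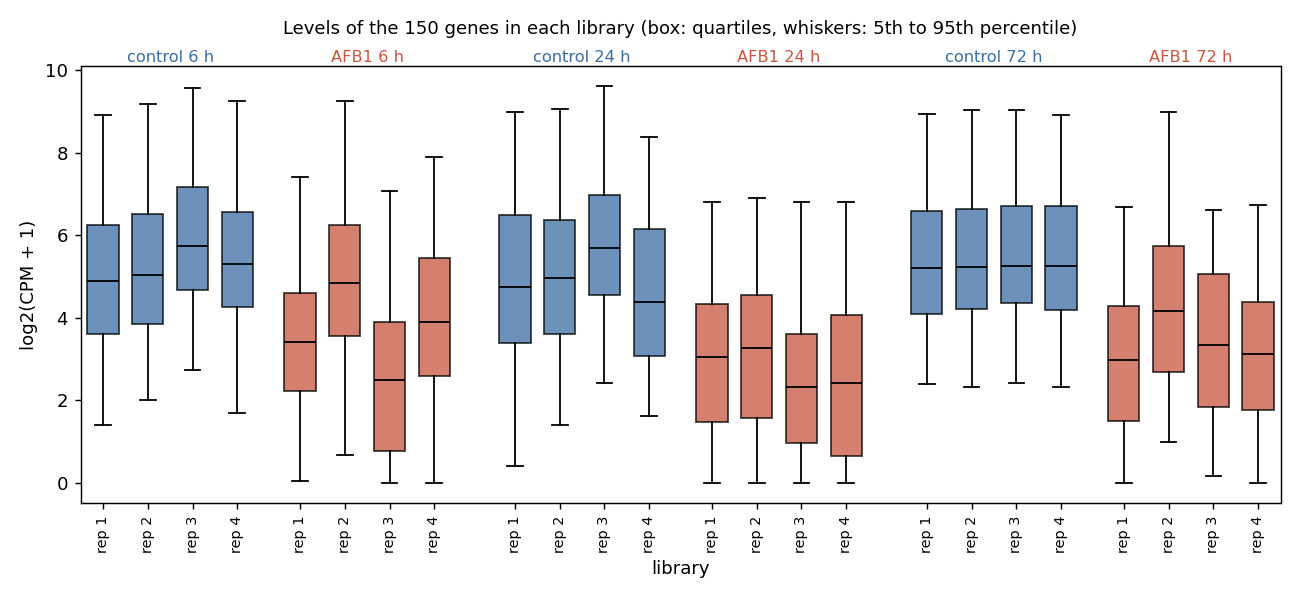
Levels of the 150 genes in each of the 24 libraries, as log2(CPM + 1) on the vertical axis, control in blue and AFB1 in red. Boxes span the quartiles with the median as a line, and whiskers reach the 5th and 95th percentiles. The AFB1 medians lie between 2.33 and 4.84, with replicate 2 the highest of them at 6 h as well as at 72 h.

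The median level of the 150 genes in a library, averaged over the libraries of a group, was 5.24 ± 0.37 (SD, n = 4) in control 6 h, 4.95 ± 0.55 in control 24 h and 5.25 ± 0.02 in control 72 h larvae. On AFB1 it was 3.66 ± 0.98 at 6 h, 2.77 ± 0.46 at 24 h and 3.40 ± 0.53 at 72 h. At 6 h the AFB1 libraries were the most uneven. Replicate 2 was the highest of its group in 121 of the 150 genes and overlapped the control range in 90, whereas replicate 3 was the lowest of its group in 124. At 72 h replicate 2 was the highest AFB1 library in 102 genes. Among the controls, 24 h replicate 4 was the lowest of its group in 89 genes, 25 of them among the 39 genes of at least 100 CPM, and the highest in 30. LOC119646963, whose share moves with several of these libraries, took 36.8% of control 24 h replicate 4 and 33.7% of AFB1 6 h replicate 3, but 7.78% of AFB1 6 h replicate 2. Its part in the levels of the 150 genes was not tested.

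**Figure D2:**
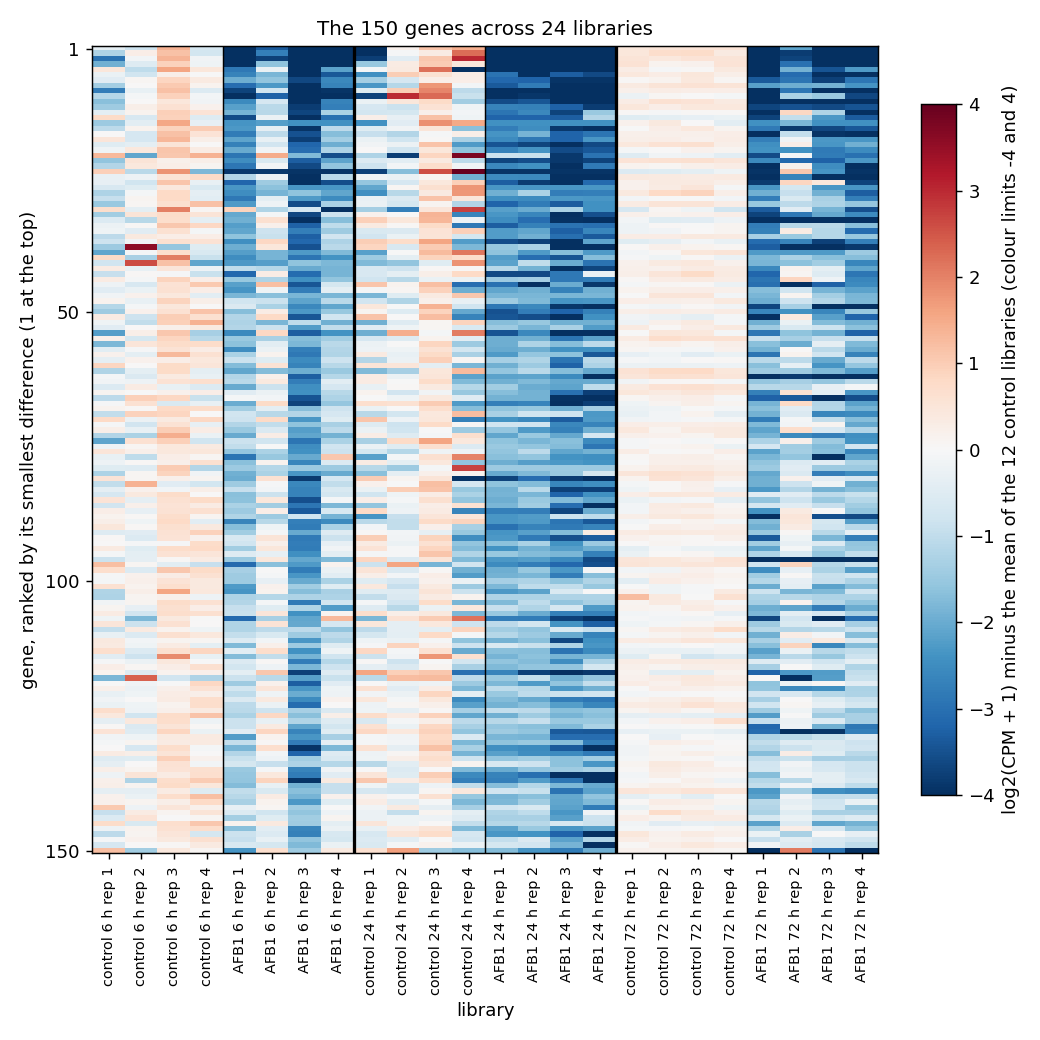
Level of each of the 150 genes (vertical axis, ranked by smallest difference) in each library (horizontal axis), as log2(CPM + 1) minus the mean of the 12 control libraries, with colours ending at -4 and 4. The 3 groups of AFB1 columns are mostly blue, AFB1 6 h replicate 2 is pale, and the 4 columns of control 72 h are nearly uniform.

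The diets did not overlap, with all 4 AFB1 libraries under all 4 control libraries, in 52 of the 150 genes at 6 h, in 75 at 24 h and in 113 at 72 h. The same held for 9.49%, 7.83% and 7.76% of all genes with counts. The groups stayed apart at all 3 times in 16 genes and at none of them in 11. In 1 gene, LOC119659749, every AFB1 library lay under every control library irrespective of time, which 0.0743% of all genes with counts did. In the count model (edgeR's quasi-likelihood test across 10165 genes, Benjamini-Hochberg adjusted p under 0.05), 46 of the 150 were called lower on AFB1 at 6 h, 115 at 24 h and 70 at 72 h. Of all genes tested, 7.74%, 19.1% and 5.92% were called lower at these times. Both sets of counts follow from how the genes were chosen, and nothing is read from them.

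LOC119660626 had the largest smallest difference of the 150 genes. Its control level was 213, 157, 739 and 174 CPM at 6 h, 13.1, 316, 616 and 762 CPM at 24 h, and 384, 397, 408 and 412 CPM at 72 h. On AFB1 it was 0.739, 26.4, 0.442 and 1.24 CPM at 6 h, 0.587, 0.488, 0.952 and 0.584 CPM at 24 h, and 0.289, 62.0, 0 and 2.07 CPM at 72 h. The diets did not overlap at any time. The highest AFB1 value at 6 h and at 72 h was that of replicate 2, and the lowest control value was that of 24 h replicate 1. The mean differences were 6.19, 7.03 and 6.66 on the log2(CPM + 1) scale.

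LOC119654479 was close to absent from the AFB1 libraries. It had 3.59, 31.5, 89.7 and 30.8 CPM in control 6 h, 1.57, 24.7, 73.0 and 287 CPM in control 24 h, and 49.3, 46.5, 50.2 and 49.2 CPM in control 72 h libraries. On AFB1 it had 0, 1.66, 0 and 0.138 CPM at 6 h, 0 CPM in all 4 libraries at 24 h, and 0, 1.72, 0.387 and 0 CPM at 72 h. It was thus at 0 in 8 of 12 AFB1 libraries. With a floor of 3 counts over the AFB1 24 h group, which equals 0.179 CPM, it was at least 346-fold lower there than in the control 24 h group. The floor covers counting error only.

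LOC119658433 ranked second, with differences of 4.39, 4.51 and 5.53 at the 3 times. Its control values ran from 2.82 CPM, in control 24 h replicate 1, to 336 CPM, in control 24 h replicate 4. On AFB1 it stayed between 0.387 and 9.76 CPM. The groups of each time did not overlap, although the lowest control value lay under the highest AFB1 value of another time.

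LOC119659749, the gene with no overlap across times, had 9.98, 14.9, 26.8 and 18.7 CPM in control 6 h, 4.92, 8.45, 17.1 and 17.1 CPM in control 24 h, and 14.5, 15.8, 19.2 and 15.1 CPM in control 72 h libraries. Its AFB1 values were 2.96, 4.10, 0.221 and 1.51 CPM at 6 h, 0.734, 0.650, 0 and 0 CPM at 24 h, and 0.482, 0.981, 0.129 and 1.03 CPM at 72 h. The closest values across the diets were the 4.10 CPM of AFB1 6 h replicate 2 and the 4.92 CPM of control 24 h replicate 1. Its mean differences were 2.65, 3.16 and 3.40.

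LOC119657728 kept a measurable level on AFB1. It had 65.9, 170, 349 and 187 CPM in control 6 h, 33.1, 75.6, 572 and 158 CPM in control 24 h, and 217, 242, 252 and 243 CPM in control 72 h libraries, against 19.5, 33.3, 9.05 and 25.9 CPM, 15.6, 23.6, 3.33 and 4.67 CPM, and 36.3, 42.4, 44.7 and 32.5 CPM on AFB1. The diets did not overlap at any of the 3 times, and the AFB1 values were highest at 72 h. LOC119650151, another gene without overlap at any time, had a mean of 20.9 CPM over the controls and 0.987 CPM over the AFB1 libraries, 4 of which were at 0.

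The remaining genes of the 8 with the largest smallest difference overlapped at some time. LOC119660223 overlapped at 6 h, when AFB1 replicate 2 had 28.6 CPM and control replicate 1 had 22.8 CPM. LOC119647487 overlapped at 6 h, when AFB1 replicate 2 had 141 CPM and control replicate 2 had 83.6 CPM. At 24 h its control replicate 4 had 5.42 CPM, while AFB1 replicate 1 had 6.16 CPM. At 72 h its groups stood apart, with 164 to 223 CPM in controls and 2.80 to 44.3 CPM on AFB1.

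**Figure D3:**
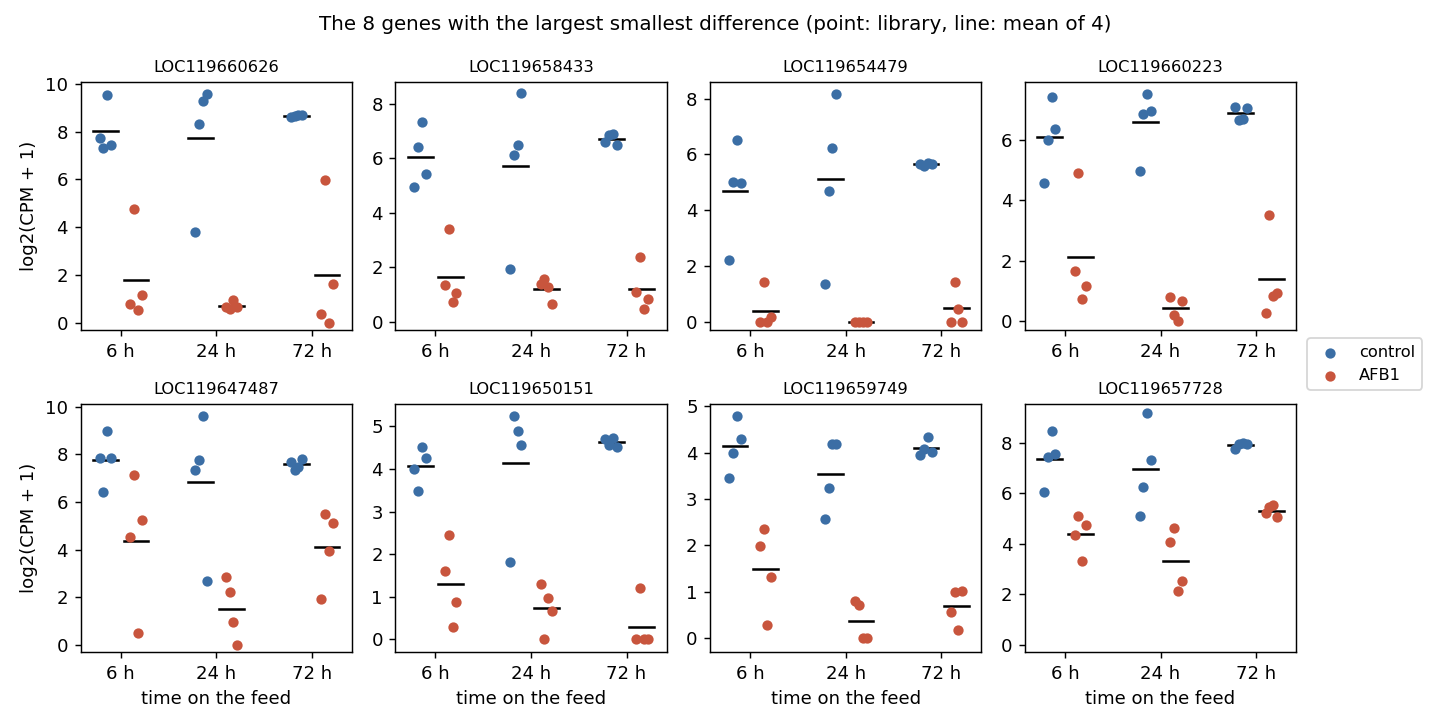
The 8 genes with the largest smallest difference. Each point is the log2(CPM + 1) of 1 library (vertical axis) by time on the feed (horizontal axis), control in blue and AFB1 in red, and each line is the mean of 4 libraries. The AFB1 points lie under the control points of the same time in 6 genes, and LOC119660223 and LOC119647487 overlap at 6 h.

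Among the 150 genes, 42 were at 0 in at least 1 AFB1 library, 8 were at 0 in at least 6 of the 12, and none was at 0 in all 12. Only 5 were at 0 in any control library, and 108 were detected in all 24 libraries. At 24 h, 8 genes had no count in any AFB1 library. With the same floor of 3 counts over the group, LOC119650832 was at least 383-fold lower there than in control 24 h and LOC119647503 at least 259-fold lower. These bounds, like that of LOC119654479, compare counts pooled over each group. In control 24 h, LOC119650832 had 0.131, 3.67, 89.4 and 360 CPM, so replicates 3 and 4 set its bound and replicate 1 lay under the floor. At 72 h it had 30.8 CPM in AFB1 replicate 2. LOC119647503 had 15.9, 46.3, 91.5 and 10.5 CPM in control 24 h. For LOC119657674, whose control level was the lowest of the 150 at 1.58 CPM, the bound was 5.46-fold.

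Of the 8 most abundant genes in controls, LOC119650814 was the highest and had 7028, 4508, 7066 and 7320 CPM in control 6 h, 19079, 12442, 13513 and 792 CPM in control 24 h, and 7148, 4772, 4869 and 7151 CPM in control 72 h libraries. On AFB1 it had 4880, 13633, 480 and 4490 CPM at 6 h, 1031, 485, 333 and 441 CPM at 24 h, and 703, 1295, 1357 and 3240 CPM at 72 h. At 6 h the AFB1 group held both the highest and the lowest value, so the difference of 0.88 at that time rests on a mean of logarithms. Its mean CPM at 6 h was 6481 ± 1321 (SD, n = 4) in controls and 5871 ± 5544 on AFB1, and the count model gave a log2 fold change of -0.01. Of the diets only 72 h was free of overlap.

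LOC119660719 and LOC119660713, which lie next to each other in the genome, had 2344 and 1467 CPM on average over the 12 controls. Their differences were 0.85, 1.53 and 2.05 for the first and 1.02, 2.81 and 2.16 for the second. LOC119647649 differed by 1.33, 1.27 and 0.80, LOC119650897 by 1.15, 2.29 and 1.30, LOC119658941 by 1.13, 1.02 and 1.06, and LOC119658412 by 1.59, 1.03 and 3.02. In 6 of these 8 abundant genes, all but LOC119650897 and LOC119658412, the diets stood apart at 72 h. LOC119649925, the third most abundant, is described with the time course.

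At the other end of the ranking, the last 3 genes kept were LOC119658985, LOC119661358 and LOC119653833, with smallest differences of 0.778, 0.775 and 0.765246. The first 3 left out were LOC119648164, LOC119652433 and LOC119653199, with 0.765183, 0.764 and 0.764. LOC119653833 at rank 150 was uneven within groups: on AFB1 at 72 h it had 1.06, 318, 8.78 and 1.94 CPM. Replicate 2 alone was above the 79.4 to 85.2 CPM of the 4 control 72 h libraries.

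To see each library apart from the choice it took part in, the rule was applied again with that library left out, and its levels were set against the means of the 2 diets at its time. Of the 12 AFB1 libraries, 10 were nearer to the AFB1 mean of the others than to the control mean in most of the genes, between 109 of 150 and 144 of 150, with 122 of 123 in AFB1 6 h replicate 3. The exceptions were AFB1 6 h replicate 2, with 43 of 150, and AFB1 72 h replicate 2, with 59 of 150. Of the controls, 11 were nearer to the AFB1 mean in 0 to 54 of the genes, and control 24 h replicate 4 was nearer to it in 85 of 150. In this library the genes chosen without it were lower than in the other controls by a median of 1.25 on the log2(CPM + 1) scale. These shares describe single libraries, and the genes of 1 library are not independent of each other.

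**Figure D4:**
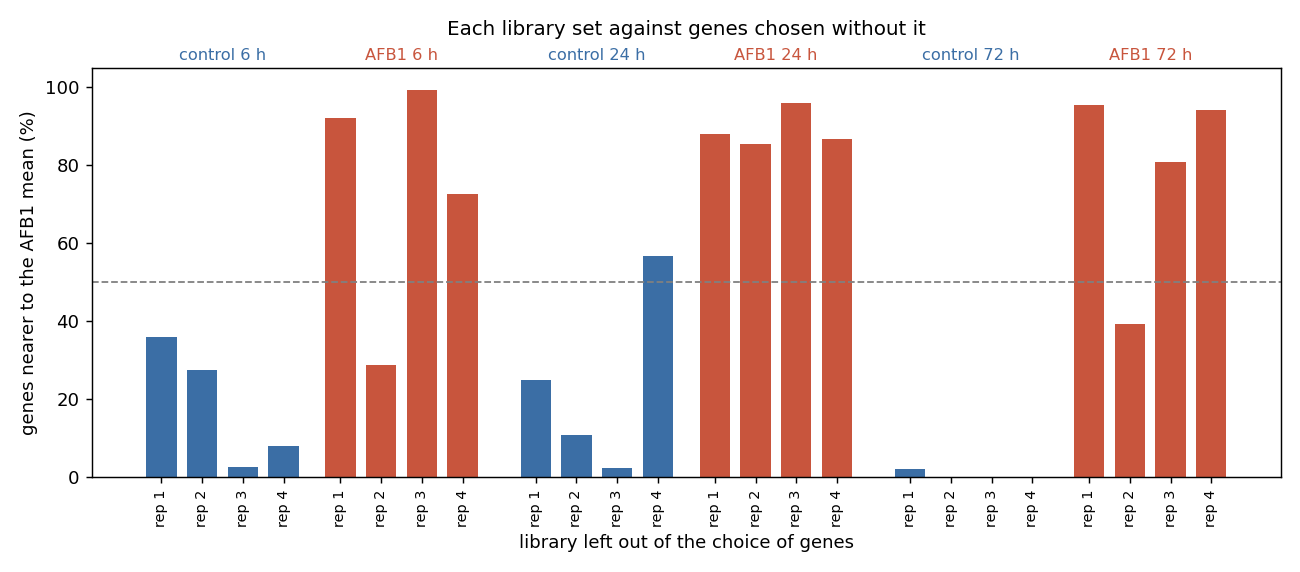
For each library (horizontal axis), the percentage of genes (vertical axis) chosen without it whose level in it lay nearer to the AFB1 mean than to the control mean of its time, control in blue and AFB1 in red. The dashed line marks 50%. Replicate 2 of AFB1 6 h and of AFB1 72 h lie under it, and control 24 h replicate 4 lies over it.

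Leaving out a library also changed which genes were chosen. Between 96 and 146 of the 150 were chosen again, the fewest without control 24 h replicate 4. In all, 31 genes were chosen again without any of the 24 libraries, 119 in at least 20 of the 24 repeats, and LOC119653833 was the only gene chosen again in fewer than 12. Without all 7 libraries nearer to another group, 82 of the 150 were chosen again. The 150 genes themselves kept median differences of 1.44, 2.43 and 1.83 at 6, 24 and 72 h without these 7 libraries. At 6 h, the median was 1.81 without AFB1 replicate 2 and 1.03 without AFB1 replicate 3.

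The rule sets no direction for changes between the AFB1 groups, so these were tested across all genes in the count model. The tests use the same libraries as the rule, which held each AFB1 mean under its control mean. Values of the 150 genes set beside those of all genes are therefore descriptions. On AFB1 the 150 genes were mostly lowest at 24 h: the group mean was lowest at 24 h in 115 genes, at 72 h in 31 and at 6 h in 4. The median change from 6 to 24 h was -0.77 on the log2(CPM + 1) scale, against -0.11 over all genes with counts, and the median change from 24 to 72 h was 0.62, against 0.14. In controls, whose means were held within less than 1 by the rule, the level was also lowest at 24 h in 99 genes. In the count model, the median over all genes tested was itself -0.19 from 6 to 24 h and 0.19 from 24 to 72 h on AFB1.

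From 6 to 24 h on AFB1, 9 of the 150 genes fell, or 6.00%, whereas 2.77% of all genes tested were called lower. Their log2 fold changes ran from -3.58 to -1.37. The strongest by p were LOC119659346 (-2.75, SE 0.63) and LOC119650814 (-3.01, SE 0.74), each with an adjusted p of 0.0492 in edgeR's quasi-likelihood test. LOC119659346 had 7.55, 32.3, 2.65 and 17.5 CPM at 6 h and 2.93, 2.11, 0.476 and 0.584 CPM at 24 h, so that the lowest 6 h value lay within the 24 h range. All 9 calls were near the threshold, with adjusted p from 0.0492 to 0.0499, and no call was left in 20 of the 24 repeats with 1 library left out. The count rose to 56 without AFB1 6 h replicate 3, to 34 when control 24 h replicate 4 was left out and to 18 without AFB1 24 h replicate 1.

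From 24 to 72 h on AFB1, 28 of the 150 genes rose and 7 fell, or 18.7% and 4.67%. Of all genes tested, 21.5% rose and 15.8% fell, so the share that rose was near the background. LOC119650960 rose by 1.89 on the log2 scale (SE 0.38, adjusted p = 0.00195 in edgeR's quasi-likelihood test). It had 6.60, 8.45, 7.62 and 8.76 CPM at 24 h and 15.1, 76.0, 34.0 and 27.8 CPM at 72 h, all above the 24 h values. LOC119650035 rose by 2.66 (SE 0.57, adjusted p = 0.00258 in edgeR), from 2.64, 2.44, 0.952 and 0 CPM to 14.0, 6.38, 16.8 and 13.3 CPM, again without overlap. At 72 h the 28 genes that rose still lay under their controls by a median of 0.96 on the log2(CPM + 1) scale, against 2.19 at 24 h. The lower bound that the rule puts on that difference also applies to these genes. The count of 35 fell to 19 without AFB1 24 h replicate 3 and to 19 without AFB1 72 h replicate 3.

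In the 7 genes that fell from 24 to 72 h, the median difference from the controls was 2.42 at 24 h and 3.94 at 72 h on the log2(CPM + 1) scale. LOC119649925 fell the most. Its control values were 757, 1071, 1410 and 1719 CPM at 6 h, 2477, 924, 1990 and 404 CPM at 24 h, and 1941, 1901, 1730 and 2055 CPM at 72 h. On AFB1 it had 494, 1905, 335 and 409 CPM at 6 h, 281, 299, 235 and 111 CPM at 24 h, and 11.4, 5.07, 20.4 and 22.6 CPM at 72 h. The AFB1 values of 72 h lay under all others of the gene, and those of 24 h lay under all controls of 24 h. The log2 fold change on AFB1 was -4.14 (SE 0.62, adjusted p = 0.000376 in edgeR) from 24 to 72 h and -5.59 (SE 0.66, adjusted p = 7.09e-05) from 6 to 72 h.

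LOC119653760 followed the same order at a lower level. On AFB1 it had 23.5, 63.0, 4.64 and 24.4 CPM at 6 h, 11.4, 11.9, 8.57 and 1.17 CPM at 24 h, and 1.06, 2.94, 1.29 and 1.68 CPM at 72 h, against 75.9 to 84.8 CPM in control 72 h libraries. Only the 1.17 CPM of AFB1 24 h replicate 4 lay within the AFB1 range of 72 h. The log2 fold change from 24 to 72 h was -2.59 (SE 0.58, adjusted p = 0.00296 in edgeR). In AFB1 24 h replicate 4, 1.17 CPM is under the 1.75 CPM that 3 counts amount to.

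LOC119648321 had 20.8, 127, 1.55 and 24.4 CPM at 6 h, 13.9, 8.94, 4.29 and 0 CPM at 24 h, and 1.45, 0.573, 0.904 and 0.646 CPM at 72 h on AFB1. Its control 72 h libraries had 58.6 to 76.3 CPM. The AFB1 replicate 4 at 24 h, with no count, lay under the 72 h values, and the others lay above them. From 24 to 72 h its log2 fold change was -3.18 (SE 0.87, adjusted p = 0.00871 in edgeR).

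Between 6 and 72 h on AFB1, 14 of the 150 genes fell, or 9.33%, against 6.02% of all genes tested that were called lower. Of these, 6 had also fallen from 24 to 72 h. The median change over the 150 genes was -0.05 on the log2(CPM + 1) scale, with 80 genes lower at 72 h than at 6 h. In all, 48 of the 150 were called in at least 1 contrast between AFB1 groups, and 4 fell from 6 to 24 h and rose from 24 to 72 h.

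Whether the AFB1 effect itself differed between the 3 times was tested with both contrasts of effects in 1 test. The rule set a lower bound on each of these differences but not how they varied with time, and the test uses the same libraries as the rule. It differed in 5 of the 150 genes, or 3.33%, against 5.47% of all genes tested, and in 32 at an unadjusted p under 0.05. The genes were LOC119649925 (adjusted p = 0.00121 in edgeR), LOC119653760 (0.00400), LOC119648321 (0.0204), LOC119648160 and LOC119650052 (0.0307 each). In all 5, the difference between control and AFB1 was smallest at 6 h and largest at 72 h. It went from 0.98 over 2.42 to 7.09 in LOC119649925, from 1.20 over 2.48 to 4.93 in LOC119653760 and from 1.67 over 4.61 to 5.16 in LOC119648321, on the log2(CPM + 1) scale. In LOC119648160 it went from 0.81 over 1.45 to 2.65, and in LOC119650052 from 2.32 over 2.82 to 3.94.

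LOC119649925 and LOC119653760 stayed under an adjusted p of 0.05 in edgeR in 30 repeats with other settings or 1 library left out, with ranges from 0.00042 to 0.00698 and from 0.00088 to 0.0340. LOC119648321 reached 0.0862 when the close pairs of control 72 h libraries were summed. The other pair of genes passed the threshold narrowly. LOC119648160 ranged from 0.00766 to 0.122, and lost its call without control 6 h replicate 4, any single control 72 h library, AFB1 72 h replicate 3 or AFB1 72 h replicate 4. LOC119650052 ranged from 0.0132 to 0.110, and lost its call without any single control 72 h library, AFB1 6 h replicate 2, AFB1 72 h replicate 2 or AFB1 72 h replicate 3. The number of genes with a differing effect rose from 5 to 20 without control 24 h replicate 4. It was 13 when AFB1 6 h replicate 3 was left out, and 8 without AFB1 24 h replicate 1 or AFB1 72 h replicate 2. It was 3 without any single control 72 h library or AFB1 72 h replicate 3.

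**Figure D5:**
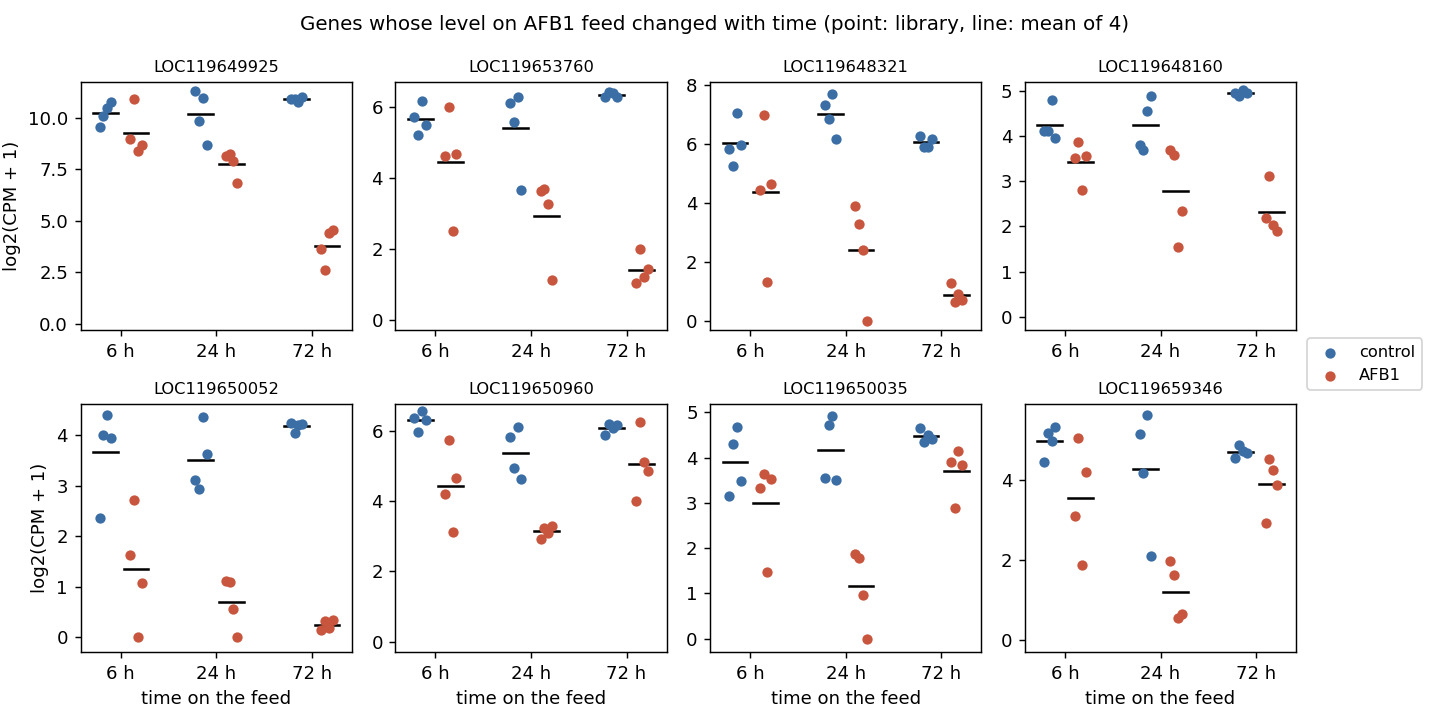
The 5 genes whose AFB1 effect differed between times and 3 genes that changed between AFB1 groups (LOC119650960, LOC119650035 and LOC119659346). Each point is the log2(CPM + 1) of 1 library (vertical axis) by time on the feed (horizontal axis), control in blue and AFB1 in red, and each line is the mean of 4 libraries. The AFB1 means of the first 5 genes descend from 6 to 72 h, and those of the other 3 are lowest at 24 h.

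Within groups the 150 genes varied together. After the group means were removed, the median Pearson correlation between genes over the 12 AFB1 libraries was 0.532, against 0.180 between all genes with a mean of at least 1 on the log2(CPM + 1) scale. Over the 12 control libraries it was 0.360, against 0.0902. These values describe the libraries: all genes share the same 24 libraries, their depths and the uneven replicates named above, and the genes were chosen on the same levels. The widest spread within AFB1 groups was that of LOC119647487, LOC119658492, LOC119653833 and LOC119650592. In LOC119650592, AFB1 replicate 2 had 40.1 CPM at 6 h and 49.6 CPM at 72 h, close to the 46.0 to 54.1 CPM of the control 72 h libraries, while the other AFB1 libraries of these times had 1.06 to 14.0 CPM. The narrowest spread was that of LOC119657674, LOC119655586, LOC119656917 and LOC119648325, all of which had under 1 CPM on AFB1 on average.

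Position along the genome was not used to choose the genes. Of the 150, 16 lay directly next to another of them in the reference annotation, or 10.7%, as did 237 of 13303 other genes with counts, or 1.78%. Within 5 genes the shares were 20.0% and 8.55%. No test was made of this difference. The 16 genes form 2 runs of 3 and 5 pairs. The first run is LOC119651948, LOC119652977 and LOC119650960, and the second is LOC119653833, LOC119653835 and LOC119653840. In the first run, LOC119652977 fell on AFB1 from 6 to 72 h (log2 fold change -3.14, SE 0.72, adjusted p = 0.00775 in edgeR), with 41.6, 41.1, 3.09 and 18.0 CPM at 6 h and 3.76, 3.35, 1.55 and 2.84 CPM at 72 h. LOC119651948 rose on AFB1 from 24 to 72 h (3.16, SE 0.94, adjusted p = 0.0138 in edgeR), from 5.43, 3.58, 1.43 and 6.42 CPM to 3.47, 116, 85.5 and 3.88 CPM, so that replicates 2 and 3 alone were high at 72 h. Without AFB1 72 h replicate 2 its adjusted p was 0.0518 in edgeR. The difference between the time courses of these genes was not tested.

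Some neighbours moved almost as 1 gene within groups. After the group means were removed, the correlation over 24 libraries was 0.941 between LOC119660719 and LOC119660713, 0.931 between LOC119660497 and LOC119660479 and 0.860 between LOC119658116 and LOC119656790. It was 0.160 between LOC119658490 and LOC119658492. The median over the 9 neighbouring pairs was 0.652, against 0.420 over all pairs of the 150 genes. LOC119660497 had 152 CPM and LOC119660479 191 CPM in AFB1 6 h replicate 4, above all 4 control 6 h libraries, in which they reached 85.8 and 100.4 CPM. How the counting divided reads of similar neighbouring genes is not given in the sources used here, so part of a shared pattern may be shared reads, which was not tested.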

How the data were processed

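The 24 libraries were made from total RNA of 2 whole larvae each and read from both ends over 150 bp, per the labels' protocols. What the authors deposited is a table of raw read counts per gene and library. The submitters' processing notes name STAR. No source used here names the counting tool, its strand setting or the genome build. Differential expression was run by the authors in DESeq2, per the series' design text. Of 15197 lines, 1 was empty and 9 named no gene. The latter held 0.0206% to 0.0431% of a library's counts. They were kept in the library totals behind CPM and left out of the edgeR and DESeq2 fits.

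From the deposited counts, CPM were computed per library without LOC119646963, and log2(CPM + 1) was averaged per group (pseudocount 1). Tests used edgeR 4.0.16 in R 4.3.3. The main fit kept LOC119646963, which the CPM left out. filterByExpr kept 10165 genes, all 150 among them, TMM scaled the libraries (factors from 0.217 to 1.67), and a robust quasi-likelihood model had a coefficient for each of the 6 groups and 18 residual degrees of freedom. Tests were two-sided, adjusted by Benjamini-Hochberg over all genes tested and called at an adjusted p under 0.05. The SE is the size of the log2 fold change divided by the square root of F. Floors of 3 counts cover counting error only. Where genes are nearly identical or overlap, their counts are uncertain. Alternatives were DESeq2 1.42.0, other scaling, no filter, a replicate block, single libraries or sets of libraries left out, and other pseudocounts and medians for the rule.

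The 150 genes and the lists were chosen with earlier results of these data known. Genes were named by a rule: the 8 of largest smallest difference, the 8 of highest control level, the last 3 kept and the first 3 left out, the 2 called genes of lowest p per contrast and direction between AFB1 groups, the 4 of lowest p for the difference between times, runs of neighbouring genes, and the 4 of widest and 4 of narrowest spread on AFB1. LOC119650052, LOC119650832, LOC119647503 and the neighbours in pairs were named after their values were seen. Lists of pathways, protein families and cell types had been planned and were not formed, since they need product names or protein sequences, which were not used here. Gene order came from the reference assembly GCF_905115235.1, whose build may differ from that of the counts, so no coordinates are given.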

Additional observations from a re-analysis of the deposited data

Results flagged for a closer look

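A library far from the other 3 of its group was looked for in each of 43 named genes and in the median level of the 150 genes, which makes 264 checks over the 6 groups, and 19 found one, all in named genes. Chance gives about 1 in 20 such groups for continuous, normally spread values. A group with 1 library above 0 and the other 3 at 0 is always flagged, so that rate does not hold here. Of the 19, 11 were AFB1 6 h replicate 2 or AFB1 72 h replicate 2. AFB1 6 h replicate 2 stood above its group with 26.4 CPM of LOC119660626, 1.66 CPM of LOC119654479, 0.0554 CPM of LOC119657674 and 0.222 CPM of LOC119656917. AFB1 72 h replicate 2 stood above its group with 1.31 CPM of LOC119650151, 795 CPM of LOC119658412, 328 CPM of LOC119653840, 2.54 CPM of LOC119658490, 0.0818 CPM of LOC119657674, 0.491 CPM of LOC119655586 and 0.981 CPM of LOC119656917. Several of these values are a few counts or fewer. For LOC119657674, LOC119656917, LOC119655586 and LOC119650151, the other 3 libraries of the flagged groups were at 0, so the flag was fixed by the zeros.

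The other 8 lay in other libraries. In controls, 6 h replicate 2 was low with 4508 CPM of LOC119650814 and 4.05 CPM of LOC119658492, and 6 h replicate 3 was high with 928 CPM of LOC119658412. Control 24 h replicate 4 was low with 792 CPM of LOC119650814, and control 72 h replicate 2 was low with 15.5 CPM of LOC119650052. On AFB1, 6 h replicate 3 was low with 1.77 CPM of LOC119650035, 24 h replicate 4 was low with 1.17 CPM of LOC119653760, and 24 h replicate 3 was at 0 CPM for LOC119650592.

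The AFB1 effect differed between the 3 times, by edgeR's test of the difference itself, in LOC119649925 (adjusted p = 0.00121), LOC119653760 (0.00400), LOC119648321 (0.0204), LOC119648160 (0.0307) and LOC119650052 (0.0307). The effect was largest at 72 h in each.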

How the results depend on the processing

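For named genes, 3822 repeated diet values moved little, 28 moved further and 20 turned in direction. The values between AFB1 groups were counted with the adjusted p of the difference between times in the 5 genes called for it. Of these, 3746 repeated values stayed on their side of the threshold, 219 lost a call, 53 gained one and 2 turned. Most of these values were not called with all libraries and had no call to lose. The 219 are therefore a larger share of the calls than of all repeated values. With 1 library left out, log2 fold changes of AFB1 against control at 6 h ran from -0.75 to 0.36 for LOC119650814 (-0.01 with all, 0.0068 with control 72 h libraries summed in 2 pairs). They ran from -1.46 to 0.35 for LOC119660479 (-0.01 with all) and from -1.53 to 0.11 for LOC119660497 (-0.23 with all). For LOC119653833 they ran from -0.82 to 0.060 (-0.40 with all), and at 24 h for LOC119658941 from -1.27 to 0.0077 (-0.27 with all). LOC119653833 ran from -2.36 to 2.11 for AFB1 72 h against 24 h and from -3.96 to 0.46 for 72 h against 6 h, with both lowest values in the repeat without AFB1 72 h replicate 2.

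With 1 library left out, the counts of the 150 genes called ranged from 20 to 81 for lower on AFB1 at 6 h (20 without control 6 h replicate 3, 22 without AFB1 6 h replicate 1, 23 without replicate 3, 81 without replicate 2), from 83 to 117 at 24 h and from 48 to 81 at 72 h. They ranged from 0 to 56 for AFB1 24 h against 6 h, from 19 to 39 for 72 h against 24 h, from 9 (without AFB1 72 h replicate 3) to 20 for 72 h against 6 h and from 3 to 20 for the difference between times. The genes chosen again ranged from 96 to 146.

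Calls for AFB1 24 h against 6 h were 0 with no filter on low counts (57 at an unadjusted p under 0.05 in edgeR), 0 with control 72 h summed in pairs (51), 0 with only the groups compared (38) and 0 without AFB1 24 h replicates 3 and 4 (28), against 41 in DESeq2. Summing the control 72 h pairs gave 36 lower at 72 h and 2 for the difference between times. With only the groups compared, 19 were lower at 6 h, 73 at 24 h and 4 changed from 6 to 72 h. Without AFB1 24 h replicates 3 and 4, 0 were lower at 24 h (119 unadjusted, 122 in DESeq2 on all libraries) and 13 changed from 24 to 72 h. Without the 7 libraries nearer to another group, 117 were lower at 72 h, 31 changed from 6 to 24 h, 35 differed between times and 82 were chosen again. DESeq2 gave 24 from 6 to 72 h and 23 between times. With LOC119646963 left out of the edgeR fit, the named genes LOC119660713 and LOC119650897 lost their calls for AFB1 24 h against 6 h (adjusted p 0.0503 each in edgeR). LOC119647649 lost its call for 72 h against 24 h (0.0569 in edgeR). Within 5 genes, 30 had a neighbour among the 150. The cause was not tested.

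Libraries with the same replicate number did not deviate together in the median (r -0.00596 over 60 pairs, against -0.0106 over 180 other pairs between groups). Of the 24, 7 correlated best with their own number. The labels do not say what the numbers stand for, and whether they mark a shared container was not tested. The main fit did not pair them. With a replicate block, 0 genes were called for AFB1 24 h against 6 h (50 unadjusted, 41 in DESeq2 without a block), 9 for 72 h against 6 h and 3 for the difference between times. Depth limits AFB1 24 h replicates 3 and 4 most: values under about 1.43 and 1.75 CPM there rest on fewer than 3 counts.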
